A study of Homo sapiens with 24 samples.

Results

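The genes described here make and assemble ribosomes. They are 56 genes for RNA polymerase I, small nucleolar ribonucleoproteins, nucleolar chaperones and the assembly of both ribosomal subunits. They were chosen by symbol from their known roles, with earlier results of these data known. All were found among the 30373 rows of the expression table. By role, 8 belong to RNA polymerase I and its transcription factors, 8 to small nucleolar ribonucleoproteins and their chaperone, 4 are nucleolar proteins that bind histones, RNA or ribosomal proteins, 18 process the small subunit and its RNA, 16 assemble the large subunit, and 2 (DDX21 and MYBBP1A) act on RNA polymerase I transcription or in several steps. Poly-A RNA was sequenced from 4 human cell lines, as 24 libraries that form 12 groups of 2. The leukaemia lines are SKM-1, MV-4-11 and Kasumi-1 (all acute myeloid), and the fourth line, NCI-H1299, is from a non-small cell lung cancer. Each line was treated for 24 h with ABBV-075 at 100 nM, with ABBV-744 at 200 nM or with DMSO, the solvent used as the control. BET proteins read acetylated histones through a pair of bromodomains, of which ABBV-075 (mivebresib) blocks both and ABBV-744 selectively the second. The compounds were given at different doses, so a comparison between them holds for these doses only. All groups grew in the same medium with serum, and the findings are those of cell lines in culture.

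Ribosomal RNA is transcribed by RNA polymerase I in the nucleolus as a long precursor. Small nucleolar ribonucleoproteins mark this precursor with methyl groups and pseudouridines, and the small subunit processome and the large subunit assembly factors fold and cut it while ribosomal proteins are added. Making ribosomes takes a large share of the energy of a growing cell, and in blood cancers the transcription factor MYC is known to drive many of these genes.

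The values are FPKM (fragments scaled to transcript length and to the mapped total of the library, a level corrected for gene length). Read depth is unknown, as an FPKM value is no count. The leukaemia markers PTPRC, CD33 and SPI1 lay between 1.70 and 218 FPKM in the 18 leukaemia libraries and at most at 0.286 FPKM in NCI-H1299, while YAP1, AXL and CAV1 were at 42.8 FPKM or more in NCI-H1299 and at most at 1.25 FPKM in the leukaemia libraries. RUNX1T1, the partner in the Kasumi-1 fusion, reached at least 29.9 FPKM in Kasumi-1 alone, MEIS1 at least 29.6 FPKM in MV-4-11 alone, and the granulocyte enzyme MPO was at 5.23 FPKM or below in MV-4-11. The libraries of most groups were close to each other, with SDs of the log2 difference over the members between 0.0810 and 0.245. The 2 SKM-1 DMSO libraries stood apart with an SD of 0.70, and the 2 Kasumi-1 libraries with ABBV-075 with 0.40. Mitochondrial transcripts took 22.3% of the FPKM sum in SKM-1 DMSO replicate 2 and 9.13% in replicate 1, and 6.65% to 16.3% in the other libraries. SKM-1 DMSO replicate 2 also held more of the other lines' markers than replicate 1, with AXL at 1.25 against 0.123 FPKM, KRT8 at 1.69 against 0.201 FPKM and MEIS1 at 0.916 against 0.229 FPKM. Whether this difference has a part in the SKM-1 results was not tested. For members called in SKM-1, changes against DMSO that lost their call or moved by over 1.5 times without 1 of these libraries are given with the value without it. For MYC, the genes of the further lists and the differences between lines no such value of a gene is given.

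The promoters of the members were read first, because many of the genes share a short motif. The motif searched was CACGTG, the E-box that MYC and related factors are known to bind, and it reads the same on both strands. RefSeq promoters (GRCh38.p14, 250 bases before to 50 bases after the start) were found for 48 of the 56 members by symbol, and the first listed start of each gene was used. No entry was listed for POLR1E, NOP58, NOLC1, RRP12, RRS1, RRP1B, BOP1 and DDX18. The motif stood in 17 of 48 members, or 35.4%. It stood in 7.26% of all 35116 promoters of this length and in 11.2% of the 7382 promoters of genes tested in all 4 lines. By role it stood in none of 7 RNA polymerase I genes, 2 of 6 small nucleolar ribonucleoprotein genes, none of the 4 histone and RNA binding proteins, 9 of 17 small subunit genes, 5 of 12 large subunit genes and 1 of the other 2. Of the 19 matches, 15 lay from 20 bases before to 36 bases after the start. A further 4 members held it at a second listed start. The stretches of 30 bases around the motif follow for 6 of the 7 matched members that were called in at least 6 of the 8 comparisons with DMSO (for NAT10, the upstream stretch). These 6 hold the motif near the start. UTP14A, the other one, held it at position -241, too near the edge of the promoter for 12 bases on each side. Capitals mark the motif, and each sequence runs 5′ to 3′ on the strand of its gene.
MRTO4, chr1:19251807-19251836, plus strand: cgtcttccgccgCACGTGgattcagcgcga
MYBBP1A, chr17:4555340-4555369, minus strand: ggggccggagcaCACGTGtttcgtgtttcg
WDR43, chr2:28894658-28894687, plus strand: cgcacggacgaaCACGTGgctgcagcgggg
PES1, chr22:30591880-30591909, minus strand: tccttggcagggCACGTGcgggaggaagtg
FBL, chr19:39846356-39846385, minus strand: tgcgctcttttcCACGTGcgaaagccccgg
In NAT10, which acetylates the RNA of the small subunit, the motif lay just before the start, so its whole upstream stretch is given as an example of such a promoter.
NAT10, chr11:34105379-34105628, plus strand: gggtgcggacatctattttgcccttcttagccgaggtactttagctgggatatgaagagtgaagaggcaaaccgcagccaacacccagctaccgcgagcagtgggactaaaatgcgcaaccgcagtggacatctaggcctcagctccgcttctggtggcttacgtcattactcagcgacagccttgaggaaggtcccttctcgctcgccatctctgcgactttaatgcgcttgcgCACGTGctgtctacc
A match describes the letters in this window and is not a measured binding site.

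The first question was how these genes responded to ABBV-075, the inhibitor of both bromodomains. In SKM-1 53 of 56 members changed, 52 of them lower and 1 higher, and 46 were at least 2-fold lower. In Kasumi-1 51 were lower and none higher, and 42 were at least 2-fold lower. In NCI-H1299 37 were lower and none higher, 11 of them at least 2-fold. In MV-4-11 28 were lower and 1 higher, and 4 were at least 2-fold lower. The MV-4-11 count of 29 was 19 without MV-4-11 ABBV-075 replicate 1, 16 without MV-4-11 ABBV-075 replicate 2 and 19 without MV-4-11 DMSO replicate 2. The calls are limma adjusted p under 0.05 (Benjamini-Hochberg over all tested genes) on log2(FPKM + 1), a scale that understates the change of low genes. All 56 members were tested in every line, and none was lost to the filter on low values. These counts rest on a spread shared over all lines. With each line fitted alone, 47 members were called in SKM-1, 52 in Kasumi-1, 50 in NCI-H1299 and 38 in MV-4-11. All of these were lower except 1 in NCI-H1299. Among all tested genes those fits called 5277, 5651, 8870 and 6542, in the same order.

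The shares have to be read against all tested genes. As the members were chosen with earlier results of these data known, the shares describe this set only. In SKM-1 61.3% of 13154 tested genes changed and 29.2% were lower, against 92.9% of members lower, and 32% were higher. In Kasumi-1 57.3% of 12158 changed and 32.6% were lower, against 91.1% of members, and 24.7% were higher. In NCI-H1299 47.1% of 12851 changed and 26.5% were lower, against 66.1% of members, and 20.6% were higher. In MV-4-11 42.4% of 12467 changed and 22.1% were lower, against 50% of members, and 20.3% were higher. At least 2-fold lower were 82.1% of members and 13.6% of tested genes in SKM-1, 75% and 14.4% in Kasumi-1, and 19.6% and 7.72% in NCI-H1299. In MV-4-11 these shares were 7.14% of members and 7.56% of tested genes, which are near each other. The share of members called lower was above that of all genes in each line, by the widest margin in SKM-1 and Kasumi-1. The median log2 change of the members was -1.84 in SKM-1, -1.52 in Kasumi-1, -0.64 in NCI-H1299 and -0.43 in MV-4-11. The median of all tested genes was 0.05, -0.09, -0.06 and -0.01 in the same order of lines. The smallest p that exact permutation of 2 against 2 libraries allows is 0.333, so the calls rest on the spread shared across groups and genes. Separate cultures are not stated for the 2 libraries of any group, so p-values here reflect library-to-library spread alone, which may be technical.

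**Figure D1:**
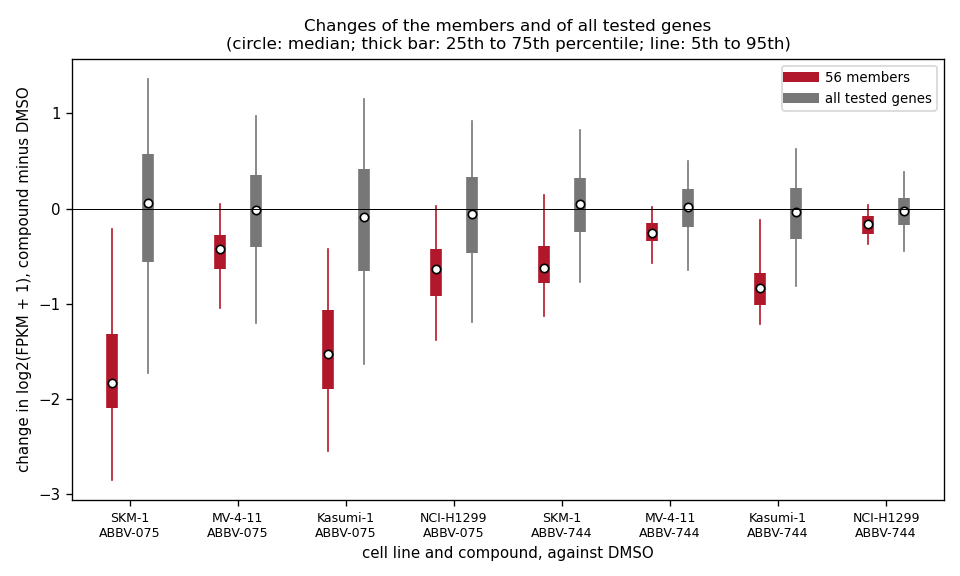
Change in log2(FPKM + 1) against DMSO (y axis) for the 56 members (red) and all tested genes (grey) in each line and compound. Circles are medians, thick bars the 25th to 75th percentile and lines the 5th to 95th. With ABBV-075 the member medians lay at -1.84 in SKM-1 and -1.52 in Kasumi-1, and all medians of all tested genes lay between -0.09 and 0.05.

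The plot of members against all genes also shows how far the groups of genes overlap. In SKM-1 the member at the 75th percentile changed by -1.32, while the gene at the 25th percentile of all tested genes changed by -0.56. In Kasumi-1 these values were -1.07 and -0.65. In MV-4-11 they crossed, at -0.28 and -0.40, and in NCI-H1299 they were close, at -0.43 and -0.47.

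With ABBV-075, 24 members were lower in all 4 lines, 15 in 3, 12 in 2, 3 in 1 and 2 (TAF1D and NOP10) in none. Those 24 are 42.9% of the members, against 7.75% of the 10180 genes tested in all 4 lines. In all 3 leukaemia lines 27 members were lower, which is 48.2%, against 10.6% of 10787 genes. When each library of a comparison was left out in turn, 49 of the 53 calls were made every time in SKM-1, 47 of 51 in Kasumi-1, 32 of 37 in NCI-H1299 and 15 of 29 in MV-4-11. By that measure 13 members were lower in all 4 lines and 15 in all 3 leukaemia lines. As a share of the FPKM sum, the members together took 0.484% and 0.516% in SKM-1 with ABBV-075, against 1.06% and 1.67% with DMSO. In Kasumi-1 they took 0.432% and 0.533%, against 0.723% and 0.733%. In MV-4-11 they took 0.484% and 0.469%, against 0.617% and 0.591%, and in NCI-H1299 0.910% and 0.912%, against 1.16% and 1.18%. In every line both ABBV-075 libraries were below both DMSO libraries on this sum. In bulk RNA, fewer cells of a kind and less RNA per cell cannot be told apart.

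**Figure D2:**
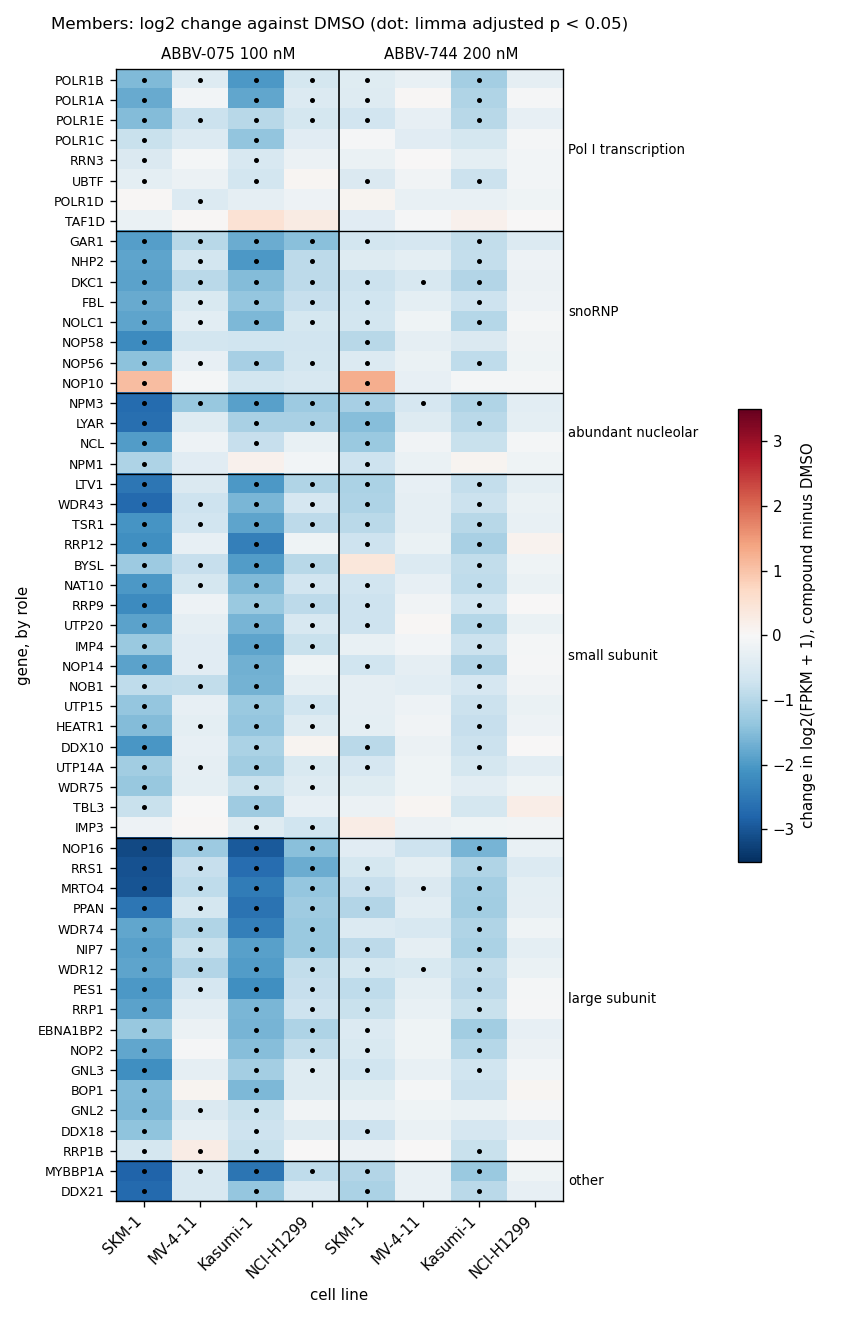
Change in log2(FPKM + 1) against DMSO (colour, blue lower and red higher) for the 56 members (rows, by role) in the 4 lines with ABBV-075 (left) and ABBV-744 (right). Dots mark limma adjusted p under 0.05. With ABBV-075 24 members carry a dot and are lower in all 4 lines, and with ABBV-744 none is called in NCI-H1299.

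The RNA polymerase I genes had smaller median changes than the other roles in SKM-1, Kasumi-1 and NCI-H1299. Their median change with ABBV-075 was -0.65 in SKM-1, -0.34 in MV-4-11, -0.80 in Kasumi-1 and -0.30 in NCI-H1299, and 6, 3, 6 and 3 of 8 were lower. POLR1B, the second largest subunit, had 6.21 and 7.18 FPKM in SKM-1 with ABBV-075, against 26.2 and 17.2 FPKM with DMSO. In Kasumi-1 it had 4.82 and 4.90 FPKM, against 21.1 and 24.4 FPKM. The ABBV-075 libraries were lower in both lines with no overlap. POLR1B changed by -1.54 ± 0.14 (log2 change with SE, 2 libraries per group, adjusted p = 1.56e-07, limma) in SKM-1 and by -2.02 ± 0.14 (adjusted p = 1.07e-08) in Kasumi-1. It also changed by -0.46 ± 0.14 in MV-4-11 and by -0.62 ± 0.14 in NCI-H1299. The MV-4-11 call of POLR1B was lost without each of the 4 MV-4-11 libraries in turn except MV-4-11 ABBV-075 replicate 1 (-0.48 to -0.40).

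POLR1A, the largest subunit, differed between lines. It had 3.60 and 3.47 FPKM in Kasumi-1 with ABBV-075, against 15.3 and 14.8 FPKM with DMSO. In MV-4-11 it had 8.96 and 9.26 FPKM, against 8.89 and 10.7 FPKM. The groups were apart in Kasumi-1 and overlapped in MV-4-11. POLR1A changed by -1.75 ± 0.14 in SKM-1, -1.83 ± 0.14 in Kasumi-1 and -0.48 ± 0.14 in NCI-H1299, and its change in MV-4-11 was -0.09 (95% interval -0.38 to 0.20, not called). The call of POLR1A in NCI-H1299 was lost without NCI-H1299 ABBV-075 replicate 1 (-0.45) and without NCI-H1299 DMSO replicate 1 (-0.47). POLR1E, a polymerase I subunit of the initiating enzyme, was lower in all 4 lines, at -1.52, -0.76, -0.97 and -0.63 in SKM-1, MV-4-11, Kasumi-1 and NCI-H1299.

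UBTF, which binds ribosomal DNA, had 33.2 and 33.5 FPKM in SKM-1 with ABBV-075, against 39.1 and 46.6 FPKM with DMSO. It changed by -0.35 ± 0.11 there and by -0.64 ± 0.11 in Kasumi-1, and stood at 0.07 in NCI-H1299 (95% interval -0.17 to 0.30, not called). The SKM-1 call of UBTF was lost without SKM-1 ABBV-075 replicate 1 (-0.34) and without SKM-1 DMSO replicate 2 (-0.22). RRN3, the initiation factor that joins the polymerase to its promoter, changed by -0.51 ± 0.14 in SKM-1 and -0.56 ± 0.14 in Kasumi-1 and was not called in MV-4-11 or NCI-H1299, at -0.06 and -0.20. Its SKM-1 call was lost without SKM-1 DMSO replicate 2 (-0.24), and the change was -0.78 without SKM-1 DMSO replicate 1. TAF1D, a subunit of the promoter selectivity factor SL1, was not called in any line. It had 144 and 236 FPKM in Kasumi-1 with ABBV-075, against 127 and 132 FPKM with DMSO. Both treated libraries were above DMSO but far from each other, and the change was 0.51 ± 0.26 (adjusted p = 0.113). POLR1D, shared by RNA polymerases I and III, was lower in MV-4-11 (-0.47) and not called elsewhere with ABBV-075. That call was lost without each of the 4 MV-4-11 libraries in turn except MV-4-11 DMSO replicate 2 (-0.51 to -0.41). POLR1C, the other shared subunit, changed by -0.79 ± 0.23 in SKM-1 and by -1.37 ± 0.23 in Kasumi-1. In SKM-1 the call of POLR1C was lost without SKM-1 DMSO replicate 1 (-0.32), and the change was -1.25 without SKM-1 DMSO replicate 2.

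The small nucleolar ribonucleoprotein genes were lower in most lines, 7 of 8 in SKM-1 and 6 of 8 in each of the other lines with ABBV-075. DKC1, the pseudouridine synthase of the H/ACA particles and of telomerase, had 33.9 and 33.7 FPKM in SKM-1 with ABBV-075, against 115 and 138 FPKM with DMSO. In MV-4-11 it had 37.9 and 39.2 FPKM, against 73 and 77.6 FPKM. In Kasumi-1 it had 30.4 and 29.7 FPKM, against 85.3 and 89.9 FPKM. The groups were apart in each of these lines, and also in NCI-H1299 at 48 and 46.4 FPKM with ABBV-075, against 90.8 and 90.4 FPKM with DMSO. DKC1 changed by -1.87 ± 0.10 in SKM-1 (adjusted p = 2.90e-10, limma), -0.95 ± 0.10 in MV-4-11, -1.51 ± 0.10 in Kasumi-1 and -0.93 ± 0.10 in NCI-H1299.

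GAR1 and NHP2, which sit beside DKC1 in the H/ACA core, were lower in all 4 lines as well. GAR1 changed by -1.92, -0.98, -1.73 and -1.46, and NHP2 by -1.84, -0.63, -2.00 and -0.91 in SKM-1, MV-4-11, Kasumi-1 and NCI-H1299. NHP2 lost its MV-4-11 call without each of the 4 MV-4-11 libraries in turn except MV-4-11 DMSO replicate 1 (-0.66 to -0.57). NOP10, the smallest protein of that core, did not follow them in SKM-1. It had 184 and 193 FPKM in SKM-1 with ABBV-075, against 150.3 and 53 FPKM with DMSO. The DMSO library at 53.0 FPKM was the low one, and the ABBV-075 libraries lay above both. NOP10 rose by 1.07 ± 0.29 in SKM-1 (adjusted p = 0.00496, limma), but by 0.33 (adjusted p = 0.0402) without that library, SKM-1 DMSO replicate 2. The rise of NOP10 was 1.81 without SKM-1 DMSO replicate 1, and the call was lost with SKM-1 fitted by itself (adjusted p = 0.105). In the other lines NOP10 was not called, at -0.07 in MV-4-11, -0.65 in Kasumi-1 and -0.55 in NCI-H1299. Its treated libraries still lay below DMSO without overlap in Kasumi-1 (63.6 and 73.5, against 110 and 106 FPKM). The same held in NCI-H1299 (261 and 282, against 412 and 384 FPKM).

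The C/D box particles carry FBL, the methyltransferase, with NOP56 and NOP58. FBL had 84.2 and 71.1 FPKM in SKM-1 with ABBV-075, against 287 and 246 FPKM with DMSO, and 367 and 336 FPKM in NCI-H1299, against 626 and 615 FPKM. The groups did not overlap in either line. FBL changed by -1.77 ± 0.17, -0.52 ± 0.17, -1.35 ± 0.17 and -0.82 ± 0.17 in SKM-1, MV-4-11, Kasumi-1 and NCI-H1299, and NOP56 by -1.42 ± 0.10, -0.30 ± 0.10, -1.17 ± 0.10 and -0.64 ± 0.10. In MV-4-11 the call of FBL was lost without each of the 4 MV-4-11 libraries in turn except MV-4-11 DMSO replicate 1 (-0.58 to -0.45) and that of NOP56 without each of the 4 MV-4-11 libraries of this comparison in turn (-0.32 to -0.27). NOP58 had 35.4 and 43.1 FPKM in SKM-1 with ABBV-075, against 108 and 306 FPKM with DMSO. All treated libraries were below DMSO, but the 2 DMSO libraries of NOP58 lay far apart. Its change of -2.19 ± 0.31 was -1.44 without SKM-1 DMSO replicate 2 and -2.94 without replicate 1, both still called. NOP58 was not called in the other lines, at -0.63, -0.71 and -0.68 in MV-4-11, Kasumi-1 and NCI-H1299. In each of these lines both of its treated libraries lay below both DMSO libraries. NOLC1, the chaperone that carries these particles to the nucleolus, was lower in all 4 lines, at -1.86, -0.38, -1.56 and -0.61.

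Among the histone and RNA binding proteins of the nucleolus, NPM3 and LYAR had the largest changes in SKM-1. NPM3, a histone chaperone of the nucleoplasmin family, had 12.4 and 9.76 FPKM in SKM-1 with ABBV-075, against 80.4 and 74.2 FPKM with DMSO. In MV-4-11 it had 18.2 and 18.7 FPKM, against 43.3 and 53.1 FPKM. In Kasumi-1 it had 34.3 and 28.9 FPKM, against 121 and 119 FPKM. The treated libraries of NPM3 were low in each line with no overlap, and in NCI-H1299 it had 21.3 and 24.2 FPKM with ABBV-075, against 57.7 and 54.9 FPKM with DMSO. NPM3 changed by -2.70 ± 0.14, -1.33 ± 0.14, -1.90 ± 0.14 and -1.27 ± 0.14 in SKM-1, MV-4-11, Kasumi-1 and NCI-H1299 (adjusted p 1.98e-10, 1.17e-06, 1.54e-08 and 1.95e-06, limma). In MV-4-11 that was the largest fall of any member.

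NCL and NPM1 are the most abundant proteins of the nucleolus. NCL had 348 and 379 FPKM in SKM-1 with ABBV-075, against 841 and 2385 FPKM with DMSO. The treated libraries were lower, but SKM-1 DMSO replicate 2 was far above replicate 1. NCL changed by -1.96 ± 0.29 (adjusted p = 2.67e-05), by -1.21 without SKM-1 DMSO replicate 2 and by -2.71 without replicate 1. In Kasumi-1 NCL had 145 and 155 FPKM with ABBV-075, against 288 and 242 FPKM with DMSO, a change of -0.81 ± 0.29 that lost its call without each of the 4 Kasumi-1 libraries in turn except Kasumi-1 DMSO replicate 2 (-0.86 to -0.69). NCL was not called in MV-4-11 or NCI-H1299, at -0.19 and -0.26.

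NPM1 was the most highly expressed member in every line, and it also has near-identical processed pseudogenes that may share its reads. It had 1079 and 1222 FPKM in SKM-1 with ABBV-075, against 1676 and 3474 FPKM with DMSO. The groups did not overlap, and again the second DMSO library was far above the first. NPM1 changed by -1.07 ± 0.24 (adjusted p = 0.00125), by -0.55 without SKM-1 DMSO replicate 2 and by -1.60 without replicate 1, and NPM1 lost its call with SKM-1 fitted by itself (adjusted p = 0.0643). In Kasumi-1 NPM1 had 1420.0 and 1997 FPKM with ABBV-075, against 1462 and 1549 FPKM with DMSO, which overlapped. NPM1 was not called there (0.16, 95% interval -0.35 to 0.68), in MV-4-11 (-0.40, interval -0.91 to 0.12) or in NCI-H1299 (-0.10, interval -0.61 to 0.42).

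LYAR, a nucleolar protein of proliferating cells, had 15.8 and 19.2 FPKM in SKM-1 with ABBV-075, against 67.8 and 189 FPKM with DMSO. Its change of -2.64 ± 0.30 was -1.90 without SKM-1 DMSO replicate 2 and -3.37 without replicate 1. LYAR also changed by -1.14 ± 0.30 in Kasumi-1 and by -1.14 ± 0.30 in NCI-H1299, and was not called in MV-4-11 at -0.46. The Kasumi-1 call of LYAR was lost without Kasumi-1 ABBV-075 replicate 1 (-0.86).

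**Figure D3:**
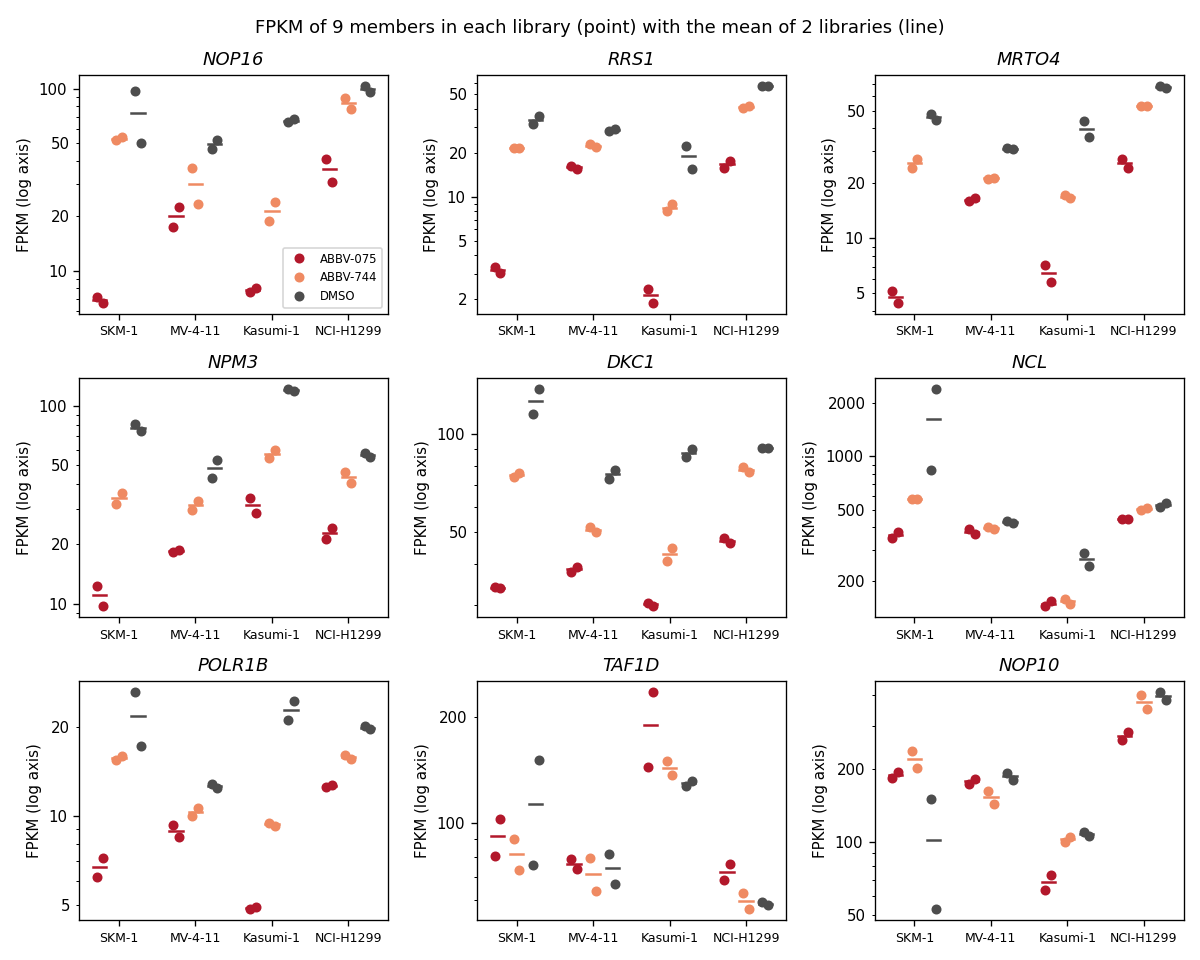
FPKM (log axis) of NOP16, RRS1, MRTO4, NPM3, DKC1, NCL, POLR1B, TAF1D and NOP10 in each library (points) with the mean of the 2 libraries (lines), by line and treatment. NOP16, RRS1, MRTO4, NPM3 and DKC1 are lowest with ABBV-075 in all 4 lines, and the SKM-1 DMSO libraries of NCL (841 and 2385 FPKM) and NOP10 (150.3 and 53.0 FPKM) lie far apart.

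Genes of the small subunit were lower in 17 of 18 cases in SKM-1, 18 of 18 in Kasumi-1, 13 of 18 in NCI-H1299 and 8 of 18 in MV-4-11 with ABBV-075, with medians of -1.70, -1.56, -0.58 and -0.34. WDR43, a processome protein that binds the start of the precursor RNA, had 8.56 and 10.7 FPKM in SKM-1 with ABBV-075, against 48 and 98.4 FPKM with DMSO. In Kasumi-1 it had 10.4 and 14.5 FPKM, against 38.9 and 39.2 FPKM. Both lines showed no overlap, although the SKM-1 DMSO libraries of WDR43 lay apart. It changed by -2.72 ± 0.23 in SKM-1 (-2.21 without SKM-1 DMSO replicate 2), -0.72 ± 0.23 in MV-4-11, -1.59 ± 0.23 in Kasumi-1 and -0.58 ± 0.23 in NCI-H1299. WDR43 lost its call in MV-4-11 without each of the 4 MV-4-11 libraries in turn except MV-4-11 ABBV-075 replicate 1 (-0.75 to -0.64) and in NCI-H1299 without each of the 4 NCI-H1299 libraries of this comparison in turn (-0.61 to -0.56).

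LTV1, an export and maturation factor of the small subunit, had 9.24 and 12 FPKM in Kasumi-1 with ABBV-075, against 44.7 and 47.2 FPKM with DMSO. TSR1, a late factor that resembles a GTPase, had 2.95 and 2.78 FPKM, against 13.6 and 12.1 FPKM. RRP12, which helps pre-ribosomes leave the nucleus, had 5.74 and 3.10 FPKM, against 28.9 and 24.8 FPKM. The treated libraries of all 3 genes lay below DMSO without overlap. Their changes in Kasumi-1 were -2.02 ± 0.26, -1.84 ± 0.12 and -2.40 ± 0.19, and the fall of RRP12 was the largest among the small subunit genes there (adjusted p = 4.08e-08, limma). In NCI-H1299 RRP12 was not called, at -0.16 (95% interval -0.56 to 0.24), while TSR1 changed by -0.91 ± 0.12 and LTV1 by -1.05 ± 0.26.

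BYSL, which joins the late steps of the small subunit, had 2.41 and 2.37 FPKM in Kasumi-1 with ABBV-075, against 11.7 and 12.4 FPKM with DMSO. It was lower in all 4 lines, at -1.28, -0.80, -1.94 and -0.96 in SKM-1, MV-4-11, Kasumi-1 and NCI-H1299. The SKM-1 change of BYSL was -0.74 without SKM-1 DMSO replicate 1, and its MV-4-11 call was lost without MV-4-11 ABBV-075 replicate 2 (-0.75) and without MV-4-11 DMSO replicate 2 (-0.75). NAT10, the RNA acetyltransferase with the motif next to its start, was also lower in all 4, at -2.01, -0.62, -1.53 and -0.67. So were HEATR1, which links RNA polymerase I transcription to processing (-1.53, -0.33, -1.35 and -0.44), and the processome protein UTP14A (-1.21, -0.33, -1.21 and -0.54). In MV-4-11 the call of HEATR1 was lost without each of the 4 MV-4-11 libraries in turn except MV-4-11 DMSO replicate 2 (-0.37 to -0.26) and that of UTP14A without each of the 4 MV-4-11 libraries of this comparison in turn (-0.40 to -0.26).

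Some genes of this role were lower in part of the lines. DDX10, an RNA helicase, had 7.22 and 7.93 FPKM in SKM-1 with ABBV-075, against 22.5 and 50.9 FPKM with DMSO, and in NCI-H1299 14.3 and 15.2 FPKM, against 13.6 and 13.9 FPKM. It changed by -2.03 ± 0.23 in SKM-1 and -1.10 ± 0.23 in Kasumi-1, and stood at 0.10 in NCI-H1299 (95% interval -0.39 to 0.59, not called) and -0.28 in MV-4-11 (not called). NOB1, the nuclease that makes the last cut of the small subunit RNA, and NOP14 were lower in the 3 leukaemia lines, NOB1 at -0.88 ± 0.17, -0.87 ± 0.17 and -1.65 ± 0.17 and NOP14 at -1.87 ± 0.13, -0.39 ± 0.13 and -1.69 ± 0.13 in SKM-1, MV-4-11 and Kasumi-1. NOP14 lost its MV-4-11 call without each of the 4 MV-4-11 libraries in turn except MV-4-11 ABBV-075 replicate 2 (-0.43 to -0.29). In NCI-H1299 neither was called, at -0.33 and -0.16. IMP3, which guides the U3 RNA, was the member of this role that was not called in SKM-1 (-0.17, with DMSO libraries at 59.7 and 36.3 FPKM). It was lower in Kasumi-1 (-0.46) and NCI-H1299 (-0.70), and the Kasumi-1 call was lost without each of the 4 Kasumi-1 libraries in turn except Kasumi-1 DMSO replicate 2 (-0.52 to -0.33). TBL3 and IMP4 changed by -1.25 ± 0.24 and -1.85 ± 0.21 in Kasumi-1 and by -0.78 ± 0.24 and -1.29 ± 0.21 in SKM-1, where TBL3 lost its call without SKM-1 ABBV-075 replicate 2 (-0.53) and without SKM-1 DMSO replicate 1 (-0.41). RRP9, UTP15, UTP20 and WDR75 were lower in SKM-1, Kasumi-1 and NCI-H1299 and not called in MV-4-11. The call of WDR75 in NCI-H1299 was lost without each of the 4 NCI-H1299 libraries of this comparison in turn (-0.48 to -0.40).

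Large subunit genes held the largest fall of any member in SKM-1, Kasumi-1 and NCI-H1299. All 16 were lower in SKM-1 and in Kasumi-1, 12 in NCI-H1299 and 9 in MV-4-11, where 1 was higher, with medians of -1.86, -1.76, -0.87 and -0.55. NOP16, a factor of the large subunit, had 7.18 and 6.65 FPKM in SKM-1 with ABBV-075, against 97.3 and 50.1 FPKM with DMSO. Kasumi-1 had 7.61 and 8.04 FPKM, against 65.6 and 67.7 FPKM. In both lines the treated libraries were close to each other and far below DMSO. NOP16 had 17.3 and 22.5 FPKM in MV-4-11 with ABBV-075, against 46.3 and 52.3 FPKM with DMSO, and 41.2 and 30.7 FPKM in NCI-H1299, against 104 and 95.3 FPKM. It changed by -3.16 ± 0.26, -1.28 ± 0.26, -2.94 ± 0.26 and -1.46 ± 0.26 in SKM-1, MV-4-11, Kasumi-1 and NCI-H1299, with adjusted p 3.92e-08, 8.26e-04, 1.24e-07 and 2.38e-04 (limma).

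RRS1, which brings the 5S RNA particle to the large subunit in yeast, had 3.32 and 3.01 FPKM in SKM-1 with ABBV-075, against 31.5 and 35.5 FPKM with DMSO. Kasumi-1 had 2.37 and 1.90 FPKM, against 22.3 and 15.6 FPKM. In NCI-H1299 it had 15.7 and 17.6 FPKM, against 57.4 and 57.1 FPKM. No groups overlapped, and the change of -1.72 ± 0.13 in NCI-H1299 was the largest fall of any member in that line (adjusted p = 5.90e-08, limma). RRS1 changed by -3.05 ± 0.13 in SKM-1, -0.81 ± 0.13 in MV-4-11 and -2.65 ± 0.13 in Kasumi-1.

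MRTO4, which holds the place of the stalk protein P0 on the immature large subunit, had 5.18 and 4.44 FPKM in SKM-1 with ABBV-075, against 47.6 and 44.3 FPKM with DMSO. In MV-4-11 it had 16 and 16.6 FPKM, against 31.1 and 30.8 FPKM. The replicates of MRTO4 were close in each group, also in SKM-1 DMSO. It changed by -3.02 ± 0.12, -0.89 ± 0.12, -2.44 ± 0.12 and -1.36 ± 0.12 (adjusted p 1.30e-11, 2.08e-05, 2.77e-10 and 2.04e-07, limma). Its promoter is the first of those printed above, with the motif 15 bases into the transcript.

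PES1, BOP1 and WDR12 form the PeBoW complex. WDR12 was lower in all 4 lines, at -1.86, -1.03, -1.95 and -0.87, and so was PES1, at -2.00, -0.60, -2.13 and -0.81 in SKM-1, MV-4-11, Kasumi-1 and NCI-H1299. PES1 lost its MV-4-11 call without each of the 4 MV-4-11 libraries in turn except MV-4-11 DMSO replicate 1 (-0.66 to -0.43). BOP1 had 28.4 and 19.5 FPKM in SKM-1 with ABBV-075, against 94.1 and 52.8 FPKM with DMSO. It changed by -1.55 ± 0.30 there and by -1.57 ± 0.30 in Kasumi-1, and was not called in MV-4-11 (0.09, 95% interval -0.55 to 0.73) or NCI-H1299 (-0.46, interval -1.10 to 0.17). The difference between these genes was not tested.

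PPAN, WDR74 and NIP7, all needed for the large subunit, were lower in all 4 lines. PPAN had 2.93 and 1.74 FPKM in Kasumi-1 with ABBV-075, against 21.8 and 15.7 FPKM with DMSO, a change of -2.57 ± 0.23. In MV-4-11 PPAN was at -0.61, and the call was lost without each of the 4 MV-4-11 libraries of this comparison in turn (-0.73 to -0.50). The ABBV-075 libraries of WDR74 in Kasumi-1 had 6.44 and 3.21 FPKM, against 30.5 and 26.2 FPKM with DMSO, a change of -2.39 ± 0.24. NIP7 changed by -1.91 ± 0.18 in SKM-1, -0.78 ± 0.18 in MV-4-11, -1.89 ± 0.18 in Kasumi-1 and -1.30 ± 0.18 in NCI-H1299. The GTPases GNL2 and GNL3 (nucleostemin) changed in SKM-1 by -1.57 ± 0.12 and -2.15 ± 0.15 and in Kasumi-1 by -0.77 ± 0.12 and -1.20 ± 0.15. NOP2, an RNA methyltransferase, changed by -1.81 ± 0.17 in SKM-1, -1.5 ± 0.17 in Kasumi-1 and -0.87 ± 0.17 in NCI-H1299 and stood at -0.05 in MV-4-11 (not called). The helicase DDX18 was lower in SKM-1 and Kasumi-1 (-1.40 and -0.73), and EBNA1BP2 and RRP1 in SKM-1, Kasumi-1 and NCI-H1299. The change of DDX18 in SKM-1 was -0.92 without SKM-1 DMSO replicate 2, and its Kasumi-1 call was lost without Kasumi-1 ABBV-075 replicate 1 (-0.47) and without Kasumi-1 DMSO replicate 2 (-0.61).

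RRP1B, a paralogue of RRP1, was the member that went both ways. In MV-4-11 it had 17.3 and 17.4 FPKM with ABBV-075, against 14.5 and 14.1 FPKM with DMSO. Kasumi-1 had 16.1 and 16.2 FPKM, against 29.9 and 26.8 FPKM. The treated libraries were above DMSO in MV-4-11 and below it in Kasumi-1, without overlap. RRP1B rose by 0.26 ± 0.10 in MV-4-11 (adjusted p = 0.0468, limma) and was lower in SKM-1 (-0.61 ± 0.10) and Kasumi-1 (-0.77 ± 0.10). The call in MV-4-11 was lost without each of the 4 libraries in turn, with adjusted p between 0.115 and 0.161.

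DDX21 and MYBBP1A act on RNA polymerase I transcription and on processing. MYBBP1A, a nucleolar repressor of transcription, had 2.18 and 1.83 FPKM in SKM-1 with ABBV-075, against 21.5 and 18.2 FPKM with DMSO. Kasumi-1 had 1.73 and 1.15 FPKM, against 13.2 and 13 FPKM. The treated libraries were the lowest in both lines. MYBBP1A changed by -2.79 ± 0.16, -0.55 ± 0.16, -2.54 ± 0.16 and -0.88 ± 0.16 in SKM-1, MV-4-11, Kasumi-1 and NCI-H1299. MYBBP1A lost its MV-4-11 call without MV-4-11 ABBV-075 replicate 2 (-0.54) and without MV-4-11 DMSO replicate 2 (-0.44). DDX21, an RNA helicase, changed by -2.73 ± 0.24 in SKM-1 (-2.17 without SKM-1 DMSO replicate 2) and -1.35 ± 0.24 in Kasumi-1, and was not called in MV-4-11 (-0.56) or NCI-H1299 (-0.47). In MV-4-11 and NCI-H1299 the treated libraries of DDX21 lay below DMSO without overlap.

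**Figure D4:**
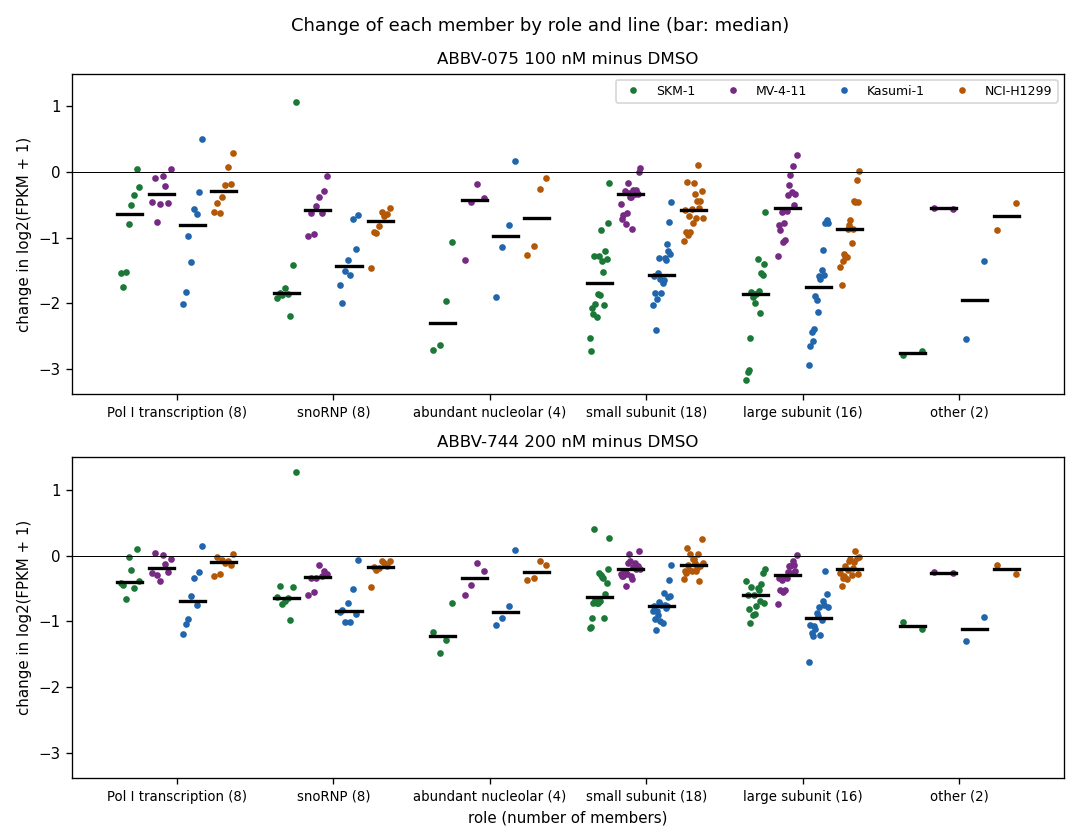
Change in log2(FPKM + 1) against DMSO (y axis) of each member (points) by role and line, for ABBV-075 (top) and ABBV-744 (bottom), with the median of each set as a bar. Large subunit genes have ABBV-075 medians of -1.86 in SKM-1 and -1.76 in Kasumi-1, and the RNA polymerase I genes -0.65 and -0.80.

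The lines were then compared for the size of the response to ABBV-075. The response was larger in SKM-1 than in MV-4-11 for 44 members, and for 1, NOP10, the difference was positive. These 45 calls are 80.4% of members, against 29.2% of 11610 tested genes (13.6% lower and 15.6% higher), and the median difference was -1.20 on the log2 scale. The widest called difference was that of MYBBP1A, with -2.24 ± 0.23 (adjusted p = 3.90e-06, limma), followed by RRS1 with -2.24 ± 0.19. Kasumi-1 fell further than MV-4-11 for 37 members (66.1%, against 27.3% of 11071 genes called and 16.7% called lower), most for RRP12, by -2.10 ± 0.27 (adjusted p = 5.31e-05), and for MYBBP1A, by -1.99 ± 0.23. The median difference was -0.96. POLR1A differed by -1.73 ± 0.20 and RRP1B, which rose in MV-4-11 and fell in Kasumi-1, by -1.03 ± 0.14.

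SKM-1 and Kasumi-1 were closer to each other. In that comparison 16 members differed in either direction (28.6%, against 30.9% of 11392 genes), a share near that of all genes, and the median difference was -0.23. By direction, 25% of members were lower, against 12.2% of genes, and 3.57% were higher, against 18.7%. LYAR (-1.5 ± 0.43), NOP58 (-1.48 ± 0.44), DDX21, NPM1 and NCL were among the 14 that fell further in SKM-1, and each of them had SKM-1 DMSO libraries that lay far apart. The 14 also held NPM3 (-0.81 ± 0.19), MRTO4 (-0.57 ± 0.17) and POLR1E (-0.55 ± 0.16), whose SKM-1 DMSO libraries were closer. These had 80.4 and 74.2 FPKM for NPM3, 47.6 and 44.3 FPKM for MRTO4 and 16.6 and 15.1 FPKM for POLR1E. In a fit of these lines alone none of the 56 differed, and without SKM-1 ABBV-075 replicate 1, without SKM-1 DMSO replicate 1 and without Kasumi-1 DMSO replicate 2 the count was 7, 33 and 10. Set against the lung line, the mean of the 3 leukaemia lines fell further for 26 members and for none did NCI-H1299 fall further (46.4%, against 18.5% of 10180 genes). RRP12 had the widest difference, -1.46 ± 0.22 (adjusted p = 2.31e-04), followed by DDX10 (-1.24 ± 0.27) and NOP14 (-1.16 ± 0.15). Within that mean, the member median of MV-4-11 (-0.43) was nearer to 0 than that of NCI-H1299 (-0.64). GAR1, RRS1 and NIP7, whose changes in NCI-H1299 were -1.46, -1.72 and -1.30, had no called difference.

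ABBV-744, selective for the second bromodomain, was followed by fewer called members and by member medians nearer to 0 in each line. The comparisons of the compounds with DMSO share the same DMSO libraries. In Kasumi-1 42 of 56 members were lower and none higher (23.6% of 12158 tested genes changed, 15% lower and 8.69% higher), with a median of -0.83 for the members and -0.04 for all genes. In SKM-1 38 were lower and 1 higher (27.4% of 13154 changed, 12.5% lower and 14.9% higher), with medians of -0.62 and 0.05. In MV-4-11 4 were lower, DKC1, NPM3, MRTO4 and WDR12, which is 7.14%, against 11.4% of 12467 genes changed, 6.75% lower and 4.61% higher. That share is near the share of all genes. In NCI-H1299 no member was called by limma, with 9 at an unadjusted p under 0.05, against 5.35% of 12851 genes called, 3.95% lower and 1.4% higher. There 50 of 56 changes were below 0, with a median of -0.16. Without trend and robust moderation 1 member was called in NCI-H1299, and in a fit of that line alone 19, all lower.

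The count for SKM-1 depends on the spread of all lines. With SKM-1 fitted by itself 1 member was called. Without SKM-1 DMSO replicate 1 the count was 41 and without replicate 2 it was 39. In MV-4-11 a fit of the line alone called 9 members, and the shared fit called 11 without either of the SKM-1 DMSO libraries. The MV-4-11 count of 4 was 2 without MV-4-11 ABBV-744 replicate 2 and without MV-4-11 DMSO replicate 2. When each library of a comparison was left out in turn, 30 of the 42 calls in Kasumi-1, 26 of the 39 in SKM-1 and 1 of the 4 in MV-4-11 were made every time.

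In Kasumi-1 ABBV-744 acted on the same roles. NOP16 had 18.7 and 23.8 FPKM with ABBV-744, against 65.6 and 67.7 FPKM with DMSO. MYBBP1A had 4.10 and 5.41 FPKM, against 13.2 and 13 FPKM. POLR1B had 9.45 and 9.23 FPKM, against 21.1 and 24.4 FPKM. All treated values of these genes were below DMSO. NOP16 changed by -1.62 ± 0.26 (adjusted p = 3.16e-04, limma), the largest fall with ABBV-744 of any member in any line, MYBBP1A by -1.31 ± 0.16, PPAN by -1.22 ± 0.23, EBNA1BP2 by -1.21 ± 0.16 and POLR1B by -1.20 ± 0.14. UBTF fell by 0.75 ± 0.11, a change close in size to its -0.64 with ABBV-075. NPM1 (0.08), TAF1D (0.15) and NOP10 (-0.07) were not called.

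In SKM-1 the order of the genes was different. LYAR had 40.4 and 39.3 FPKM with ABBV-744, against 67.8 and 189 FPKM with DMSO. NCL had 576 and 579 FPKM, against 841 and 2385 FPKM. The treated libraries were lower, and their distance from DMSO depends on which DMSO library is taken. LYAR changed by -1.49 ± 0.30, but by -0.75 without SKM-1 DMSO replicate 2 and -2.22 without replicate 1, and NCL by -1.29 ± 0.29, but by -0.54 without replicate 2 and -2.04 without replicate 1. NPM1 fell by 0.73 ± 0.24 (adjusted p = 0.0364), and lost its call without each of the 4 SKM-1 libraries in turn except SKM-1 DMSO replicate 1 (-0.84 to -0.20), while the change was -1.25 without SKM-1 DMSO replicate 1. NPM3 rested on closer libraries, with 32 and 36.1 FPKM with ABBV-744, against 80.4 and 74.2 FPKM with DMSO, a change of -1.16 ± 0.14 (adjusted p = 1.99e-05). TSR1 changed by -0.96 ± 0.12, MRTO4 by -0.81 ± 0.12 and DKC1 by -0.74 ± 0.10.

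In SKM-1 NOP16 and BYSL were called lower with ABBV-075 but were not called with ABBV-744. NOP16 had 52.2 and 54 FPKM with ABBV-744, against 97.3 and 50.1 FPKM with DMSO, so the groups overlapped and the change of -0.39 was not called (95% interval -0.93 to 0.15). NOP16 was called lower (-0.86) without SKM-1 DMSO replicate 2. BYSL had 21.4 and 27.8 FPKM, against 27 and 12.3 FPKM, which also overlapped, at 0.40 (not called), and it was called higher (0.94) without SKM-1 DMSO replicate 1. NOP10 had 236 and 200.4 FPKM with ABBV-744, against 150.3 and 53 FPKM with DMSO, and rose by 1.27 ± 0.29, or by 0.53 without SKM-1 DMSO replicate 2 and 2.02 without replicate 1.

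The 4 members lower in MV-4-11 with ABBV-744 were also lower in SKM-1 and Kasumi-1, and no member was lower in all 4 lines. DKC1 had 51.8 and 50.1 FPKM in MV-4-11 with ABBV-744, against 73 and 77.6 FPKM with DMSO. MRTO4 had 21.2 and 21.4 FPKM, against 31.1 and 30.8 FPKM, and WDR12 had 26.3 and 24.5 FPKM, against 36.7 and 37.5 FPKM. The treated libraries of these genes were below DMSO without overlap. The changes were -0.55 ± 0.10 for DKC1 (adjusted p = 0.00142), -0.52 ± 0.12 for MRTO4, -0.53 ± 0.11 for WDR12 and -0.60 ± 0.14 for NPM3. The call of MRTO4 was lost without each of the 4 MV-4-11 libraries of this comparison in turn (-0.53 to -0.51), that of WDR12 without MV-4-11 ABBV-744 replicate 2 (-0.48) and that of NPM3 without MV-4-11 ABBV-744 replicate 1 (-0.53) and without MV-4-11 DMSO replicate 2 (-0.46). In NCI-H1299 the lowest adjusted p was that of RRS1, which had 40.5 and 41.6 FPKM with ABBV-744, against 57.4 and 57.1 FPKM with DMSO, a change of -0.47 ± 0.13 (adjusted p = 0.0571).

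Set directly against each other at these doses, levels were higher with ABBV-744 than with ABBV-075 for 47 members in SKM-1 (43.6% of 13154 genes differed and 22.7% were higher), 39 in Kasumi-1 (37.7% and 21.2% of 12158), 30 in NCI-H1299 (34.6% and 18.6% of 12851) and 9 in MV-4-11 (21.9% and 12.5% of 12467). Those are 83.9%, 69.6%, 53.6% and 16.1% of members in the same order of lines. In MV-4-11 the share of members was near that of all genes. No member was lower with ABBV-744 than with ABBV-075 in these fits. The median differences were 1.12, 0.63, 0.51 and 0.20 on the log2 scale. NOP16 had 52.2 and 54 FPKM in SKM-1 with ABBV-744, against 7.18 and 6.65 FPKM with ABBV-075. RRS1 had 21.7 and 21.7 FPKM, against 3.32 and 3.01 FPKM. The compounds gave levels far apart for both genes, with differences of 2.77 ± 0.26 (adjusted p = 4.27e-07, limma) and 2.45 ± 0.13 (adjusted p = 1.63e-09). RRS1 also had the widest difference in Kasumi-1 (1.60 ± 0.13) and NCI-H1299 (1.25 ± 0.13), and NPM3 in MV-4-11 (0.73 ± 0.14, adjusted p = 0.00101). UBTF and TAF1D were not called in any line, and for UBTF the 95% intervals of the difference were -0.38 to 0.09 in SKM-1, -0.15 to 0.32 in MV-4-11, -0.35 to 0.13 in Kasumi-1 and -0.40 to 0.08 in NCI-H1299. The count in MV-4-11 was between 2 and 4 without any 1 of its own 4 libraries and 17 without either of the SKM-1 DMSO libraries in the shared spread, 16 of them higher and 1, RRP1B, lower (-0.25). RRP1B was also called lower in MV-4-11 with median-of-ratios rescaling (-0.27). The count in NCI-H1299 was 47 in a fit of that line alone, with 45 higher and 2 lower, TAF1D (-0.27) and UBTF (-0.16). Without NCI-H1299 ABBV-075 replicate 2 and without NCI-H1299 ABBV-744 replicate 1 it was 19.

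Of the difference between the leukaemia mean and NCI-H1299 in the ABBV-744 response, 2 members were called, DKC1 (-0.56 ± 0.11, adjusted p = 0.0374) and NOLC1 (-0.52 ± 0.10, adjusted p = 0.022), against 0.57% of 10180 genes. The median difference was -0.39, and 53 of 56 differences were below 0. This count moved with single libraries, from 0 without any of the 4 NCI-H1299 libraries of these groups or SKM-1 ABBV-744 replicate 1 to 12 without SKM-1 DMSO replicate 2 and 21 without SKM-1 DMSO replicate 1.

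Untreated levels were compared next. With DMSO the members had medians of 47.8 FPKM in SKM-1, 34 in MV-4-11, 41.5 in Kasumi-1 and 43.2 in NCI-H1299. NPM1 was the highest member in every line, and UTP20 the lowest in the leukaemia lines. Between the mean of the leukaemia lines and NCI-H1299, 35 members differed, 20 lower and 15 higher in leukaemia, with a median difference of -0.15. That is 62.5% of members, against 65.2% of 10180 genes, so the share was near that of all genes. EBNA1BP2, a large subunit factor named for its viral partner, had 137 and 94.4 FPKM in SKM-1, 51.3 and 51.3 in MV-4-11 and 84.9 and 74.8 in Kasumi-1, against 354 and 348 FPKM in NCI-H1299. All leukaemia libraries were lower, and the difference was -2.17 ± 0.13 (adjusted p = 6.84e-10, limma). NOP10 (-1.70 ± 0.24), NOP2 (-1.65 ± 0.13) and UTP20 (-1.43 ± 0.10) were lower too. DDX18 (1.02 ± 0.19), WDR12 (0.98 ± 0.09) and TAF1D (0.77 ± 0.21) were higher in leukaemia. Across the 56 members, which are not independent, the DMSO level and the ABBV-075 change had rank correlations of -0.11 in SKM-1, -0.12 in MV-4-11, 0.25 in Kasumi-1 and -0.20 in NCI-H1299, a description that shares the DMSO libraries between both axes.

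Other genes of the pathway, in 6 lists with 141 genes written from their known roles, were set beside all tested genes. These lists too were chosen with earlier results of these data known. With ABBV-075 103 of 141 were lower and 7 higher in SKM-1 (73% lower, against 29.2% of all genes), 91 and 5 in Kasumi-1 (64.5%, against 32.6%) and 63 and 5 in NCI-H1299 (44.7%, against 26.5%). In MV-4-11 41 were lower and 5 higher, and that 29.1% is near the 22.1% of all genes. With ABBV-744 42 were lower and 2 higher in SKM-1 (29.8% lower, against 12.5%) and 52 and 1 in Kasumi-1 (36.9%, against 15%). In MV-4-11 4 were lower (2.84%, against 6.75%), and in NCI-H1299 none was called by limma, with 5 at an unadjusted p under 0.05. Their median with ABBV-075 was -0.95 in SKM-1, -0.72 in Kasumi-1, -0.40 in NCI-H1299 and -0.28 in MV-4-11.

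**Figure D5:**
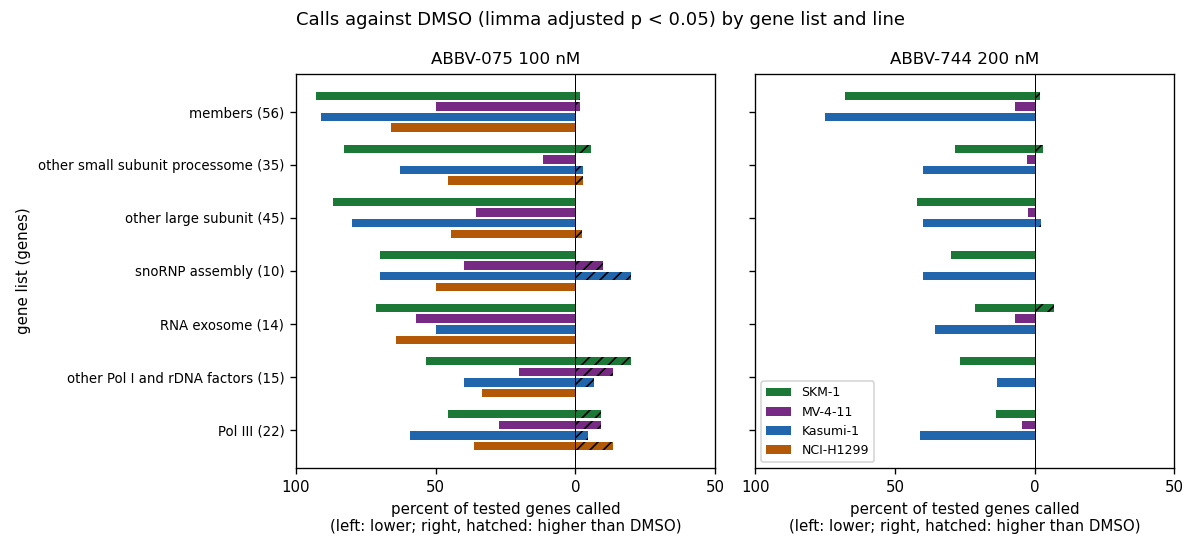
Percent of tested genes called lower (bars to the left) or higher (hatched bars to the right) than DMSO (x axis) for the members and 6 further lists (rows), by line, with ABBV-075 (left) and ABBV-744 (right). With ABBV-075 39 of 45 other large subunit genes were lower in SKM-1 and 36 in Kasumi-1, against 8 and 6 of 15 other RNA polymerase I factors.

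Of all tested genes 29.2%, 32.6%, 26.5% and 22.1% were lower with ABBV-075 in SKM-1, Kasumi-1, NCI-H1299 and MV-4-11. Of 45 other large subunit genes, 39 (86.7%) were lower in SKM-1, 36 (80%) in Kasumi-1, 20 (44.4%) in NCI-H1299 and 16 (35.6%) in MV-4-11. Among them BRIX1 changed by -2.70 in SKM-1, -1.36 in MV-4-11 and -1.46 in NCI-H1299, and NLE1 by -2.71 in SKM-1 and -2.23 in Kasumi-1. Of 35 other small subunit genes 29 (82.9%) were lower in SKM-1, 22 (62.9%) in Kasumi-1, 16 (45.7%) in NCI-H1299 and 4 (11.4%) in MV-4-11. The MV-4-11 share was below that of all genes. WDR3 changed by -2.32 in SKM-1 and NOL6 by -2.10 in Kasumi-1, while the kinase RIOK3 was higher in SKM-1 (0.88), Kasumi-1 (0.64) and NCI-H1299 (0.83). Of the 14 genes of the RNA exosome, which trims the precursors, 10 (71.4%), 7 (50%), 9 (64.3%) and 8 (57.1%) were lower in SKM-1, Kasumi-1, NCI-H1299 and MV-4-11. Its core subunit EXOSC5 changed by -3.20, -3.21, -1.19 and -1.29 in these lines.

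The list of 15 other RNA polymerase I and ribosomal DNA factors also holds subunits shared with other polymerases and the mitochondrial TOP1MT, and it was mixed. With ABBV-075 8 were lower and 3 higher in SKM-1, 6 and 1 in Kasumi-1, 5 and 0 in NCI-H1299 and 3 and 2 in MV-4-11. The shares lower were 53.3%, 40%, 33.3% and 20%, against 29.2%, 32.6%, 26.5% and 22.1% of all tested genes. Outside SKM-1 they were near those of all genes. TCOF1 (treacle), which keeps the polymerase at ribosomal DNA, was lower in all 4 lines, at -2.33, -2.45, -1.68 and -0.93 in SKM-1, Kasumi-1, NCI-H1299 and MV-4-11. TAF1B, like TAF1D a subunit of SL1, was higher in SKM-1 (0.63), MV-4-11 (0.46) and Kasumi-1 (0.37). Of 22 RNA polymerase III genes, which make 5S and transfer RNA, 10 were lower and 2 higher in SKM-1 (45.5% lower, against 29.2% of all genes) and 13 and 1 in Kasumi-1 (59.1%, against 32.6%). In NCI-H1299 8 were lower and 3 higher (36.4%, against 26.5%) and in MV-4-11 6 and 2 (27.3%, against 22.1%). GTF3C6 was lower in all 4 lines (-2.43, -2.21, -2.70 and -1.93), and POLR3GL, which can replace POLR3G in the enzyme, was higher in Kasumi-1 (1.24), NCI-H1299 (1.08) and MV-4-11 (0.99). Of 10 snoRNP assembly genes 7 (70%) were lower in SKM-1 and in Kasumi-1, 5 (50%) in NCI-H1299 and 4 (40%) in MV-4-11. Among them were ZNHIT6 (-2.16) in SKM-1 and RUVBL1 (-1.77) in Kasumi-1. In Kasumi-1 2 of the 10 were higher, and in MV-4-11 1 was.

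MYC itself moved beside these genes in part of the comparisons, and its part in their change was not tested. It had 3.17 and 3.27 FPKM in SKM-1 with ABBV-075 and 121 and 139 with ABBV-744, against 309 and 178 FPKM with DMSO. Kasumi-1 had 29.4 and 28.1 with ABBV-075 and 125 and 118 with ABBV-744, against 265 and 229.7 FPKM. In MV-4-11 it had 80.8 and 76.7 with ABBV-075 and 130.0 and 129.6 with ABBV-744, against 178 and 174 FPKM. MYC was lowest with ABBV-075 in each leukaemia line. In NCI-H1299 it had 78.8 and 87.6 with ABBV-075 and 104 and 106 with ABBV-744, against 107 and 100 FPKM. Both ABBV-075 libraries were the lowest there too, at a smaller distance from DMSO than in SKM-1 and Kasumi-1. MYC changed by -5.80 in SKM-1, -3.06 in Kasumi-1 and -1.15 in MV-4-11 (SE 0.175 each). Its change of -0.31 in NCI-H1299 was not called (95% interval -0.69 to 0.06) in the fit that shares 1 estimate of the spread over all lines. With ABBV-744 MYC changed by -0.85 in SKM-1 and -1.02 in Kasumi-1, and it was not called in MV-4-11 (-0.44) or NCI-H1299 (0.02). The size of the SKM-1 change depends on which DMSO library is taken, as these lay at 309 and 178 FPKM.

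The changes of members with and without the CACGTG motif near their start were set side by side. With ABBV-075 the 17 with the motif had medians of -1.87 in SKM-1, -0.49 in MV-4-11, -1.62 in Kasumi-1 and -0.81 in NCI-H1299, and the 31 without it -1.83, -0.46, -1.35 and -0.62. With the motif 16, 10, 16 and 14 were lower, and without it 28, 15, 28 and 20. With ABBV-744 the medians were -0.69, -0.27, -0.85 and -0.19 with the motif and -0.48, -0.26, -0.80 and -0.16 without it. These are descriptions of a set chosen by role, with no test.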

How the data were processed

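Messenger RNA of 4 cell lines was measured in 24 libraries of 12 groups. Per the file headers, the authors deposited 1 FPKM value per gene and library, which is not a count. For the aligner, the quantifier, the build and the gene models, a name is not given in the sources used here. The submitters' processing notes name DESeq2 without a version or a role. Depth is therefore unknown, and no interval or floor based on counts is given. FPKM sums ran from 543426 to 719215 per library, with 11243 to 12624 genes at 1 FPKM or more.

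Libraries were grouped by their labels. The 56 members and the 6 further lists were chosen with earlier results of these data known. From the FPKM values, log2(FPKM + 1) was fitted with limma 3.58.1 in R 4.3.3 (12 group means, 24 libraries, 12 residual degrees of freedom, moderated with trend and robust settings, which use statmod 1.5.0). Of the table's rows, 15370 were fitted. A comparison tested the genes that reached 1 FPKM in 2 or more libraries of each of its lines, two-sided, with Benjamini-Hochberg adjustment over all genes tested and a threshold of 0.05. There were 18 comparisons, and intervals are 95% intervals of the fit. The procedure was tested on simulated data. Named members were taken from every role, the largest called changes first, then those against the common direction, then those not called, and from each further list up to 3 called genes in each direction. Other alternatives were another pseudocount (0.1 FPKM), no filter, a filter of 5 FPKM, median-of-ratios rescaling, leaving out the 37 mitochondrial rows, no trend or robust setting, fits of the lines alone and leaving out each library. Figures were drawn with matplotlib 3.10.9.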

Additional observations from a re-analysis of the deposited data

Results flagged for a closer look

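Responses to ABBV-075 differed between lines by limma tests of the difference itself. Between SKM-1 and MV-4-11, 45 of 56 members differed, with MYBBP1A at -2.24, RRS1 at -2.24 and RRP1B, which was called in opposite directions in these lines, at -0.87 (differences of the log2 changes). That is 80.4% of members, against 29.2% of 11610 tested genes. Between Kasumi-1 and MV-4-11, 37 differed, with RRP12 at -2.10, MYBBP1A at -1.99 and RRP1B, again called in opposite directions, at -1.03. That is 66.1%, against 27.3% of 11071 genes. The MV-4-11 call of RRP1B against DMSO was lost without each of the 4 libraries in turn. Between SKM-1 and Kasumi-1, 16 differed in either direction (28.6%, against 30.9% of 11392 genes), a share near that of all genes. By direction, 25% of members were lower, against 12.2% of genes, and 3.57% were higher, against 18.7%. In a fit of these lines alone none differed. The widest called differences were those of NOP10 at 1.72 and LYAR at -1.5. Both of these genes had SKM-1 DMSO libraries far apart, and the part of that spread was not tested.

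Between the mean of the leukaemia lines and NCI-H1299, 26 members differed in their ABBV-075 response, with RRP12 at -1.46 and DDX10 at -1.24. That is 46.4%, against 18.5% of 10180 genes. In the ABBV-744 response 2 differed by the same test, DKC1 at -0.56 and NOLC1 at -0.52. These are 3.57% of members, against 0.57% of 10180 genes.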

How the results depend on the processing

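No called member value changed sign to another called value among 4924 recomputed values of 448 member results, and 67 changes of sign lay between values not called. In fits of the lines alone the count of members called was 1 for ABBV-744 in SKM-1, 9 in MV-4-11 and 19 in NCI-H1299, 47 for ABBV-744 against ABBV-075 in NCI-H1299 and 0 for the SKM-1 minus Kasumi-1 response to ABBV-075. This fit was not run where all 4 lines enter the comparison. For the leukaemia minus NCI-H1299 response to ABBV-744 the count was 7 with no filter and 1 with median-of-ratios rescaling, and for ABBV-744 in NCI-H1299 it was 1 without trend and robust settings. The cause was not tested.

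Leaving out 1 library at a time gave 16 to 20 members for ABBV-075 in MV-4-11, 2 to 3 for ABBV-744 in MV-4-11, 0 for ABBV-744 in NCI-H1299, 2 to 4 for ABBV-744 against ABBV-075 in MV-4-11, 19 to 24 in NCI-H1299, 7 to 33 for the SKM-1 minus Kasumi-1 response and 0 to 21 for the leukaemia minus NCI-H1299 response to ABBV-744. These fits leave a group with 1 library, which is assumed to vary like the others. Leaving out a library that stands apart but is not in the comparison was chosen after seeing the data. It gave up to 39 for ABBV-075 in MV-4-11, 11 for ABBV-744 in MV-4-11, 1 to 4 for ABBV-744 in NCI-H1299, 11 to 17 for ABBV-744 against ABBV-075 in MV-4-11, 32 to 37 in NCI-H1299 and 4 for the leukaemia minus NCI-H1299 response to ABBV-744.

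Without mitochondrial rows the median of all genes for ABBV-744 in SKM-1 was -0.10, against 0.05 as deposited, and the member median was -0.79, against -0.62. No paired analysis was possible because the replicate numbers follow the order of the samples and the labels give none. The 2 libraries per group and the unknown depth limit all tests.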
